A study of Mus musculus with 4 samples.

Results

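The genes described here write, maintain, and remove DNA methylation in mouse embryonic stem (ES) cells, and their transcripts were followed through DNA damage and loss of p53. They are the methyltransferases Dnmt1, Dnmt3a and Dnmt3b, the cofactors Dnmt3l and Uhrf1, the dioxygenases Tet1, Tet2 and Tet3, and the glycosylase Tdg. These 9 genes were chosen by name, by their role, from 22398 named genes, with earlier results of these data known. Their RefSeq identifiers were carried by 28 transcript rows. All 9 were among the 13012 genes that reached 1 FPKM (fragments scaled to transcript length and to the mapped fragments of the library) in at least 1 library.

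RNA with poly(A) tails came from ES cells with a C57BL/6X129Sv mix as background, kept under 20 passages in serum with leukemia inhibitory factor, a cytokine that sustains self-renewal. The 4 groups were p53-/- cells given Adriamycin, p53-/- cells left untreated, p53+/+ cells given Adriamycin and p53+/+ cells left untreated, with 1 library each. Adriamycin, also called doxorubicin, is a topoisomerase II poison that breaks DNA, and it was applied at 0.5 uM for 8 h. The series asks how ES cells control p53-mediated apoptosis, and how many cell lines stand behind each genotype is not given in the sources used here. With no replicates, the differences below describe these 4 libraries, and neither a test nor a spread between cultures can be had.

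The aligned bases, taken as coverage times length, were 3.52 gigabases for treated and 3.34 for untreated p53-/- cells, against 4.15 for treated and 4.32 for untreated p53+/+ cells. Trp53, the gene labelled as lost, stood at 76.5 and 78.6 FPKM in the treated and untreated p53-/- libraries, against 165 and 216 FPKM in the treated and untreated p53+/+ libraries. Its mRNA was thus present under the p53-/- label, and the deleted part is not given in the sources used here. Differences are given on the log2(FPKM + 1) scale, and a gene is counted as higher or lower where its difference is at least 1 in size. Mdm2, a p53 target that encodes the ubiquitin ligase of p53, differed by 0.15 between treated and untreated p53-/- cells and by 2.94 between treated and untreated p53+/+ cells. Cdkn1a, the other gene taken as a check of the treatment, differed by 0.43 in p53-/- and by 1.67 in p53+/+ cells. Of 8 ES cell markers, 7 were well above 1 FPKM in each library, with Pou5f1 between 658 and 948 FPKM, while Fut4 stayed between 0.136 and 1.02 FPKM. These markers also moved with the treatment. In the p53-/- response 7 of 8 lay below 0, against 4605 of all 13012 genes, with a median of -0.17 and 0 counted. In the p53+/+ response 7 of 8 lay below 0, against 5979 of all 13012 genes, with a median of -0.65. Zfp42 (-1.76) and Nanog (-1.55) were counted as lower, that is 2 of 8, against 2.78% of all genes. The part of these markers in the responses below was not tested. Between genotypes, 6 of 8 ES cell markers were lower in untreated p53-/- than in untreated p53+/+ cells, at any size. Their median was -0.44, against -0.05 over all genes. In the treated pair 5 of 8 were lower, with a median of -0.19, against -0.02 over all genes. In either pair 0 of 8 were counted. Fibroblast markers moved with the genotype: 12 of 14 measured were counted as higher in treated p53-/- than in treated p53+/+ cells, against 6.72% of all genes, and 11 of 14 in the untreated pair, against 3.51%. Above 0 were 13 of 14 in each pair, against 6375 of all 13012 genes in the treated pair and 5900 in the untreated pair. The 15 listed markers summed to 726 and 803 FPKM in the treated and untreated p53-/- libraries, against 188 and 265 FPKM in the treated and untreated p53+/+ libraries, where Col3a1, Postn, Dcn and Lum were listed at 0. Primitive endoderm markers moved the other way, with 10 of 11 below 0 in each pair of genotypes. Over all 13012 genes 6636 were below 0 in the treated pair and 7102 in the untreated pair. Of the 11 markers, 7 were counted as lower in the treated pair, against 13.0% of all genes, and 6 in the untreated pair, against 3.14%. The part of these marker lists in the differences between genotypes below was not tested. In bulk RNA, fewer cells of a type and less RNA per cell cannot be told apart.

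DNA methylation in mammals sits mostly on cytosines followed by guanine (CpG). Dnmt3a and Dnmt3b place it anew, with Dnmt3l as a partner that has no catalytic activity of its own. After replication Uhrf1 recognises the half-methylated CpG and brings Dnmt1, which copies the mark to the new strand. The Tet enzymes oxidise methylcytosine, and Tdg cuts out the most oxidised forms, so that base excision repair can restore plain cytosine. ES cells in serum are known for carrying both machineries at once, with Tet1 and Tet2 as their main Tet genes and a short Dnmt3a isoform, Dnmt3a2, as their main Dnmt3a product.

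The levels ran from Dnmt3l at the top to Tet3 at the bottom, in each library. FPKM is scaled to transcript length, which lets levels of different genes be set beside each other. The protocols name an exome enrichment kit, and if capture was applied, unequal capture of genes would enter this order; whether it was is not given in the sources used here. In the p53+/+ untreated library the order from high to low was Dnmt3l (404 FPKM), Uhrf1 (101), Dnmt1 (71.7), Dnmt3b (47.0), Tet1 (45.5), Tet2 (30.8), Dnmt3a (14.8), Tdg (5.73) and Tet3 (1.51). Of the 8 neighbouring pairs in that order, only Dnmt3b and Tet1 had overlapping 95% bounds. The bounds are those the authors deposited, summed over the rows of a gene; they cover counting and assignment error in 1 library and not the spread between cultures. One pair also overlapped in each other library: Uhrf1 with Dnmt3b in treated p53-/- cells, Dnmt1 with Dnmt3b in untreated p53-/- cells, and Tet1 with Dnmt3b in treated p53+/+ cells. Every row of every member lay within its own bounds in all 4 libraries.

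**Figure D1:**
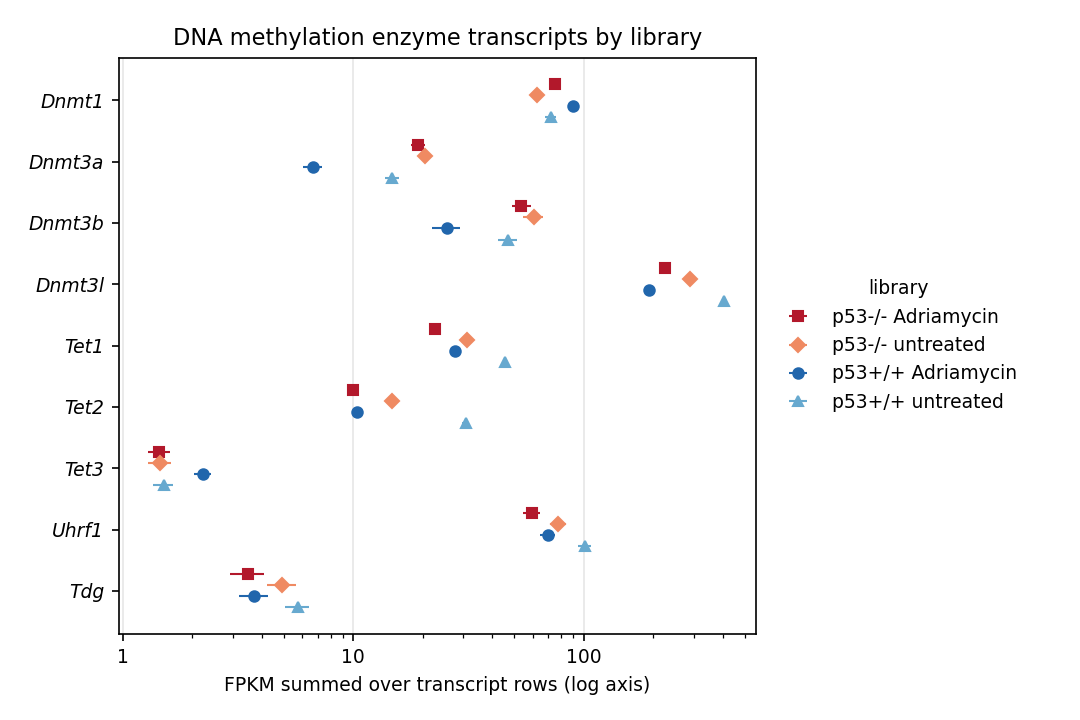
FPKM summed over transcript rows on a log axis for the 9 genes, 1 symbol per library, with the summed 95% bounds of the deposited tables as bars. Dnmt3l is the highest gene in each library (192 to 404 FPKM) and Tet3 the lowest (1.44 to 2.22 FPKM), and the untreated p53+/+ library is the highest for Dnmt3l, Tet1, Tet2, Uhrf1 and Tdg.

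In p53+/+ cells 3 of the 9 genes, Dnmt3a, Dnmt3l and Tet2, were counted as lower after Adriamycin, and 0 of 9 as higher. Over all 13012 genes 2.78% were lower and 11.4% higher by at least 1 in the same comparison. With a pseudocount of 5 FPKM (Dnmt3l and Tet2) or after quantile normalization (Dnmt3a and Tet2) 2 of 9 were lower. With these changes 153 of 13012 and 589 of 12907 genes were lower, in that order. The median difference of the 9 genes was -0.70, against 0.05 over all genes. Below 0 were 7 of 9, against 5979 of all 13012 genes. The exceptions among the 9 were Dnmt1 and Tet3. Dnmt3b at -0.86 and Tet1 at -0.70 stood just outside the counted size, and Dnmt3a at -1.04 and Dnmt3l at -1.07 just inside.

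Dnmt3l, the inactive partner of the de novo enzymes (chr10:77505032-77526360 in mm9), had 224 and 288 FPKM in treated and untreated p53-/- cells, and 192 and 404 FPKM in treated and untreated p53+/+ cells. The untreated p53+/+ library was the highest and the treated one the lowest, and no 2 libraries had overlapping bounds. The difference between treated and untreated cells was -0.36 in p53-/- and -1.07 in p53+/+ cells.

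Dnmt3a, a de novo methyltransferase (chr12:3806980-3914443), had 19.1 and 20.4 FPKM in treated and untreated p53-/- cells, and 6.69 and 14.8 FPKM in treated and untreated p53+/+ cells. The treated p53+/+ library stood below the other 3, and the bounds of the p53-/- pair overlapped. The differences were -0.09 in p53-/- and -1.04 in p53+/+ cells.

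The Dnmt3a rows divided by transcription start. NM_153743, the Dnmt3a2 row, begins 84764 bases downstream of the outermost start, inside the gene. It carried 14.6 and 16.7 FPKM in treated and untreated p53-/- cells, and 3.96 and 12.0 FPKM in treated and untreated p53+/+ cells. The 2 rows that begin at the upstream end of the gene, NM_007872 and NM_001271753, summed to 4.46 and 3.78 FPKM in treated and untreated p53-/- cells, and to 2.73 and 2.77 FPKM in treated and untreated p53+/+ cells. So the p53+/+ difference was -1.39 for the internal start and -0.01 for the upstream starts, which lie close together and were joined after the values had been seen. The internal start held 59.1% of Dnmt3a FPKM in treated p53+/+ cells, against 81.3% in untreated p53+/+ cells, and 76.6% and 81.5% in treated and untreated p53-/- cells. Between the 2 upstream rows the split was unstable. NM_007872 was at 0.0017 FPKM in treated p53+/+ cells while NM_001271753 was at 2.73 FPKM, and in untreated p53-/- cells they stood at 3.76 and 0.0136 FPKM. Weight is therefore given to their sum and not to their split. All Dnmt3a rows end at the same base, at lengths of 8913 bases (internal) and 9735 and 9689 bases (upstream). Reads could thus be shared, and the division by start also rests on how they were assigned. Dnmt3aos, the antisense RNA inside Dnmt3a, was listed at 0 in all 4 libraries.

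**Figure D2:**
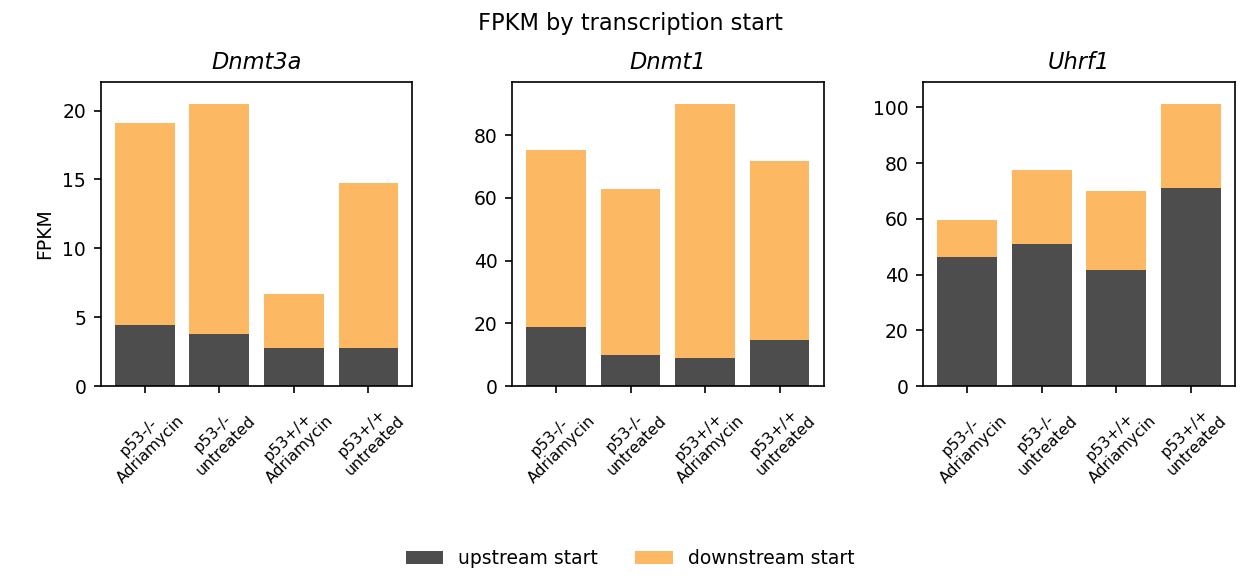
Bars of FPKM in the 4 libraries for Dnmt3a, Dnmt1 and Uhrf1, each divided into the rows that begin at the upstream and at the downstream start. The downstream part of Dnmt3a is 3.96 FPKM in the treated p53+/+ library and between 12.0 and 16.7 FPKM in the others, while its upstream part stays between 2.73 and 4.46 FPKM.

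The windows around these starts are shown because the 3 genes counted as lower differ in the DNA at which they begin. Each holds 300 bases, most of them before the start, from RefSeq on GRCm38, read 5′ to 3′ on the gene's strand. The deposited tables use mm9, so the windows were matched by the distance from start to gene end or by the spacing between starts, which succeeded for 12 of 15 starts. Capitals mark the GC box GGGCGG and the E-box CACGTG, on either strand.
Dnmt3a, upstream start, plus strand, chr12:3806730-3807029: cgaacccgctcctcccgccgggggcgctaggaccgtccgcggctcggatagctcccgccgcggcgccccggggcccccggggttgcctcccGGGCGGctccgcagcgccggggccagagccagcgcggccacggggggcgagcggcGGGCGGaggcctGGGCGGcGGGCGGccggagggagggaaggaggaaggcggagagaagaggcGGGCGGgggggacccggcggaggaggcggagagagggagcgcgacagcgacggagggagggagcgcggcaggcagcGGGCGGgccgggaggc
Dnmt3a, internal start, plus strand, chr12:3891494-3891793: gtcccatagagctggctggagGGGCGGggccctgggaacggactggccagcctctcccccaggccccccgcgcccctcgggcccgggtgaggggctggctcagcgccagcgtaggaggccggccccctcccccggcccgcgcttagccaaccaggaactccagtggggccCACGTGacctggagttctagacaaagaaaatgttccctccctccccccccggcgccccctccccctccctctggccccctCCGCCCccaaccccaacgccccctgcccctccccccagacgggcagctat
Dnmt3l, main start, plus strand, chr10:78049592-78049891: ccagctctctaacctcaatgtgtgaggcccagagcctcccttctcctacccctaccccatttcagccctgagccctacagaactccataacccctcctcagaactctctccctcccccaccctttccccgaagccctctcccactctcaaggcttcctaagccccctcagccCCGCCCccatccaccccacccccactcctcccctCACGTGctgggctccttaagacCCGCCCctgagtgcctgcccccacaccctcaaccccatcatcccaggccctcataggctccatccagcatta
Tet2, minus strand, chr3:133544341-133544640: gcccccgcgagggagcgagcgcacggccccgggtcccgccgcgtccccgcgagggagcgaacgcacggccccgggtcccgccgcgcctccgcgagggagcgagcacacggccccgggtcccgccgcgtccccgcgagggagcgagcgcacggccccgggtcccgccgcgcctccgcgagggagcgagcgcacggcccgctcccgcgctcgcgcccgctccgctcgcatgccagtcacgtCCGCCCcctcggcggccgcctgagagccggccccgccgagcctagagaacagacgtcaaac

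The upstream Dnmt3a window holds 46 CpGs and 6 GC boxes, and the internal one 18 CpGs and 2 GC boxes. The Dnmt3l window holds 4 CpGs and 2 GC boxes, and the Tet2 window 57 CpGs and 1 GC box. The median over 32851 RefSeq windows of the same length was 7 CpGs, so the Dnmt3l window lies below it and the Tet2 window far above. The E-box was found once in the internal Dnmt3a window and once in the Dnmt3l window, and in 7.15% of all windows; a GC box was found in 35.7%. No E2F match (TTTCGCGC or TTTGGCGC), octamer (ATTTGCAT) or p53 half-site consensus match was found on either strand in the 4 windows. Those 3 motifs were found in 0.813%, 1.74% and 8.36% of all windows. Such letter matches are descriptions and not binding sites.

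Dnmt3b, the other de novo methyltransferase (chr2:153475185-153513466), followed the order of Dnmt3a. It had 53.6 and 60.7 FPKM in treated and untreated p53-/- cells, and 25.5 and 47.0 FPKM in treated and untreated p53+/+ cells. Again the treated p53+/+ library was the lowest, and the bounds of the p53-/- pair overlapped. Its 9 rows share 1 start and differ by splicing, with lengths from 3960 to 4324 bases. NM_001122997 was the largest row, with 57.5% and 57.6% of the sum in treated and untreated p53-/- cells, and 52.8% and 55.9% in treated and untreated p53+/+ cells. In treated and untreated p53+/+ cells this row stood at 13.5 and 26.2 FPKM, NM_001003963 at 3.39 and 8.05 FPKM, and NM_001271746 at 1.91 and 7.09 FPKM. These were the 3 largest rows of the untreated library, and all were lower. NM_001003961 stood at 2.94 FPKM in treated and 2.37 FPKM in untreated p53+/+ cells, so the rows did not move as 1.

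Dnmt3l also had 2 rows, and nearly all of its FPKM came from 1 of them. NM_019448 carried between 98.0% and 99.2% of the sum. NM_001081695, which begins 7555 bases upstream and whose span overlaps Aire, stayed between 1.79 and 3.83 FPKM. It stood at 3.83 FPKM in treated and 3.60 FPKM in untreated p53+/+ cells, where the main row was at 188 and 401 FPKM.

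Tet2 (chr3:133126641-133207354), 1 of the 3 Tet dioxygenases, had the largest difference of the 9 genes. Its single row had 9.94 and 14.7 FPKM in treated and untreated p53-/- cells, and 10.4 and 30.8 FPKM in treated and untreated p53+/+ cells. The treated libraries of both genotypes overlapped in their bounds, and the untreated p53+/+ library was the highest, at 2.97 times the treated one. The differences were -0.53 in p53-/- and -1.48 in p53+/+ cells.

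Tet1 (chr10:62267318-62342762), the most abundant Tet gene here, had 22.7 and 31.1 FPKM in treated and untreated p53-/- cells, and 27.6 and 45.5 FPKM in treated and untreated p53+/+ cells. Both treated libraries were lower than their untreated ones, by -0.44 in p53-/- and -0.70 in p53+/+ cells. Of its 2 rows, NM_001253857 held at least 99.1% of the sum in each library. Tet3 (chr6:83312368-83391672), a Tet gene known from the oocyte and from neurons, was barely detected. It stood at 1.44 and 1.45 FPKM in treated and untreated p53-/- cells, and at 2.22 and 1.51 FPKM in treated and untreated p53+/+ cells. Its bounds were 2.03 to 2.40 FPKM in treated and 1.36 to 1.66 FPKM in untreated p53+/+ cells. The Tet3 difference in p53+/+ cells was 0.36, and -0.03 after quantile normalization, where its direction turned. The 3 Tet genes together came to 34.0 and 47.3 FPKM in treated and untreated p53-/- cells, and to 40.2 and 77.8 FPKM in treated and untreated p53+/+ cells. Tet1 over Tet2 was 2.28 and 2.11 in treated and untreated p53-/- cells, and 2.66 and 1.48 in treated and untreated p53+/+ cells.

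Dnmt1, the maintenance methyltransferase (chr9:20711650-20764332), was the only member above 0 in both responses. It had 75.3 and 62.9 FPKM in treated and untreated p53-/- cells, and 89.8 and 71.7 FPKM in treated and untreated p53+/+ cells. The treated library was the higher one in each genotype, with bounds apart, by 0.25 in p53-/- and 0.32 in p53+/+ cells. Uhrf1 (chr17:56442760-56462909), which recruits Dnmt1, went the other way. It had 59.4 and 77.6 FPKM in treated and untreated p53-/- cells, and 69.9 and 101 FPKM in treated and untreated p53+/+ cells, with bounds apart in each pair. The differences were -0.38 in p53-/- and -0.53 in p53+/+ cells, and 0.02 and -0.42 for NM_001111079 alone, its row with the highest mean level. The order of the 2 genes therefore swapped: Uhrf1 over Dnmt1 was 0.790 and 1.23 in treated and untreated p53-/- cells, and 0.778 and 1.41 in treated and untreated p53+/+ cells. A ratio within a library does not depend on the scaling between libraries, and it shows unequal change and not which of the 2 changed.

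Starts of Dnmt1 and Uhrf1 were also divided, with the same limit, because their rows share nearly all exons. The Dnmt1 row NM_001199432 begins 6909 bases upstream of the main start. It stood at 18.7 and 9.96 FPKM in treated and untreated p53-/- cells, and at 8.84 and 14.6 FPKM in treated and untreated p53+/+ cells, so treatment went with more of it in one genotype and less in the other. The main Dnmt1 rows, NM_001199431 and NM_010066, share their start and differ by 3 bases in length (5370 and 5367 bases), so the split between them carries little weight. The 2 Uhrf1 rows of the upstream start summed to 46.3 and 51.1 FPKM in treated and untreated p53-/- cells, and to 41.5 and 70.9 FPKM in treated and untreated p53+/+ cells. Those that begin 976 bases downstream summed to 13.2 and 26.6 FPKM in treated and untreated p53-/- cells, and to 28.4 and 30.1 FPKM in treated and untreated p53+/+ cells. The lower Uhrf1 sum thus lay mostly in the downstream start in p53-/- cells (-0.96, against -0.14 for the upstream start) and mostly in the upstream start in p53+/+ cells (-0.76, against -0.08 for the downstream start).

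Tdg, the glycosylase that excises oxidised methylcytosine (chr10:82092583-82113239), had 3.49 and 4.90 FPKM in treated and untreated p53-/- cells, and 3.71 and 5.73 FPKM in treated and untreated p53+/+ cells. Both treated libraries were lower, by -0.40 in p53-/- and -0.52 in p53+/+ cells, with bounds apart. NM_172552 carried nearly all of this and NM_011561 was near 0 in each library. Another row at the same place in mm9, NR_037190, is named Tdg-ps2 by the reference, which puts that pseudogene elsewhere on chromosome 10. It had 6.10 and 6.79 FPKM in treated and untreated p53-/- cells, and 4.64 and 5.10 FPKM in treated and untreated p53+/+ cells. Reads of the 3 rows could be shared, so Tdg is uncertain. With that row added, a choice made after the data were seen, its differences were -0.26 in p53-/- and -0.34 in p53+/+ cells. Its difference between p53-/- and p53+/+ cells then changed direction, to 0.18 in treated and 0.10 in untreated cells, against -0.07 and -0.19 without the row. After quantile normalization the treated pair also stood above 0 (0.17).

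In p53-/- cells 0 of 9 genes were lower or higher by at least 1 after Adriamycin, and over all genes 0.461% were lower and 0.377% higher. The median of the 9 was -0.36, against 0.07 over all genes. Below 0 were 8 of 9, against 4605 of all 13012 genes. The largest difference was again that of Tet2, at -0.53. Summed bounds were apart for Dnmt1, Dnmt3l, Tet1, Tet2, Uhrf1 and Tdg, and overlapped for Dnmt3a, Dnmt3b and Tet3. That is 6 of 9 genes, against 16.2% of the 10672 genes past the filter whose rows all lay within their own bounds. In the p53+/+ pair they were apart for all 9 genes, against 59.8% of those genes. Such bounds depend on the reads of a gene, and the genes behind these shares, here and below, were not matched to the members in level or length. The 2 responses share no library. Below 0 in both were 7 of 9 genes, a pattern found in 19.3% of all genes. Dnmt1 was the 1 gene above 0 in both, as were 37.8% of all genes, and Tet3 the 1 gene with opposite signs, as were 42.6%.

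**Figure D3:**
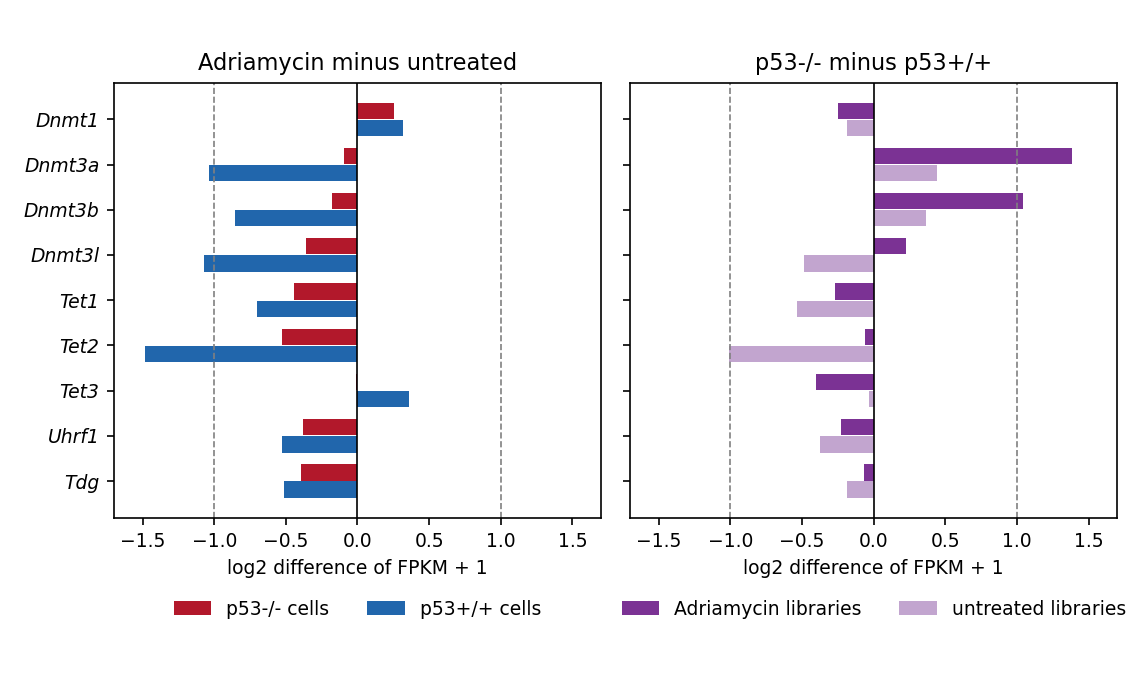
Differences on the log2(FPKM + 1) scale for the 9 genes. On the left, treated minus untreated cells of each genotype; on the right, p53-/- minus p53+/+ cells, treated and untreated. Dashed lines mark the counted size of 1, which Dnmt3a, Dnmt3l and Tet2 pass on the left in p53+/+ cells, and Dnmt3a, Dnmt3b and Tet2 on the right.

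The p53-/- response minus the p53+/+ response was above 0 for 7 of 9 genes, with a median of 0.26, against 0.01 over all genes. It was above 0 for 6613 of all 13012 genes. It reached 1 in 0 of 9 genes, while 3.29% of all genes were higher and 10.4% lower by at least 1. The nearest were Tet2 at 0.96, Dnmt3a at 0.94, Dnmt3l at 0.71 and Dnmt3b at 0.68, and the next was Tet1 at 0.26. Dnmt3a passed 1 with a pseudocount of 0.1 FPKM (1.03), after quantile normalization (1.09) and for its main row alone (1.21). The smallest in size were Uhrf1 (0.15), Tdg (0.12) and Dnmt1 (-0.07). They depended on the settings, with 0.44 for the main row of Uhrf1, 0.29 for Tdg after quantile normalization and 0.07, in the other direction, for the main row of Dnmt1. The p53+/+ response was the larger one in size for each of the 9 genes as summed, which held for 75.7% of all genes. It was not for the main row of Dnmt1 (0.38 in p53-/- and 0.31 in p53+/+ cells) or for Tet3 after quantile normalization (-0.15 in p53-/- and -0.03 in p53+/+ cells).

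Without treatment the p53-/- library differed from the p53+/+ one in opposite directions within the family. Tet2 was lower by -1.01, the only one of 9 counted, against 3.14% of all genes lower and 3.51% higher by at least 1. Tet1 stood at -0.53, Dnmt3l at -0.49 and Uhrf1 at -0.38, while Dnmt3a stood at 0.44 and Dnmt3b at 0.36. Bounds were apart for 7 of 9 genes, all but Tet3 and Tdg, against 48.7% of all genes with rows within bounds. Tet2 was no longer counted with a pseudocount of 5 FPKM (-0.86) or after quantile (-0.93), upper quartile (-0.98) or median ratio scaling (-0.97). This comparison and the p53+/+ response share the untreated p53+/+ library.

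After treatment Dnmt3a and Dnmt3b were counted as higher in p53-/- than in p53+/+ cells, at 1.39 and 1.04, and 0 of 9 were lower by at least 1. Over all genes 6.72% were higher and 13.0% lower. At the larger pseudocount of 5 FPKM, Dnmt3b stood at 0.94. Dnmt3a was 2.85 times and Dnmt3b 2.10 times as high in treated p53-/- as in treated p53+/+ cells. This comparison and the p53+/+ response share the treated p53+/+ library. Bounds were apart for 7 of 9 genes, all but Tet2 and Tdg, against 64.7% of all genes with rows within bounds. Dnmt3a and Dnmt3b together came to 72.7 and 81.1 FPKM in treated and untreated p53-/- cells, and to 32.2 and 61.7 FPKM in treated and untreated p53+/+ cells. Tet2 had nearly the same level in both treated libraries (-0.06), and its direction turned after quantile normalization (0.05). Dnmt1 over the sum of Dnmt3a and Dnmt3b was 1.04 and 0.776 in treated and untreated p53-/- cells, and 2.79 and 1.16 in treated and untreated p53+/+ cells. The treated p53+/+ library had the highest of these ratios.

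The genes that work with these enzymes were counted from lists chosen with earlier results of these data known. Over all genes 0.461% were lower and 0.377% higher by at least 1 in the p53-/- response. In the p53+/+ response 2.78% were lower and 11.4% higher, and 5979 of 13012 lay below 0 at any size. These shares stand beside the response counts of each list below. Maintenance and targeting partners, such as Hells, Trim28 and Zfp57, had a median of 0.05 in the p53-/- response, with 0 of 11 counted, and of -0.53 in the p53+/+ response, with 1 of 11 lower and 10 of 11 below 0. The one lower was Trim28, the corepressor that holds methylation at imprinted loci, at 720 and 892 FPKM in treated and untreated p53-/- cells, and 469 and 989 FPKM in treated and untreated p53+/+ cells. Hells, a chromatin remodeller needed for methylation of repeats, stood at 72.3 and 59.1 FPKM in treated and untreated p53-/- cells, and at 35.8 and 70.8 FPKM in treated and untreated p53+/+ cells. Its response difference of 1.25 was the only one of that list to reach 1, against 3.29% of all genes. In the lists below it reached 1 for 4 of 6 factors of naive pluripotency: Prdm14 (2.19), Nanog (1.33), Dppa3 (1.12) and Tfcp2l1 (1.10). Sin3a (1.43), Apex1 (1.13) and the uncertain Amd1 (3.29) also reached 1. Xrcc1 was lower (-1.07), against 10.4% of all genes.

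Of 6 factors of naive pluripotency that bear on methylation, 0 were counted in the p53-/- response (median 0.01) and 3 were lower in the p53+/+ response (median -0.98). Prdm14, a repressor of the de novo enzymes in mouse ES cells, stood at 12.0 FPKM in both treated and untreated p53-/- cells, and at 3.38 and 18.9 FPKM in treated and untreated p53+/+ cells. Nanog (-1.55) and Tfcp2l1 (-1.05) were the others. Dppa3, which binds Uhrf1, was higher in p53-/- than in p53+/+ cells (4.54 treated and 3.42 untreated). It had 44.6 and 36.0 FPKM in treated and untreated p53-/- cells, and 0.956 and 2.45 FPKM in treated and untreated p53+/+ cells.

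Among 7 measured Tet partners and isocitrate dehydrogenases, which supply the Tet cosubstrate, 0 were counted in the p53-/- response with a median of 0.02, and 1 was lower in the p53+/+ response, with a median of -0.55. This was Sin3a, a corepressor scaffold that binds Tet1, at 62.7 and 61.7 FPKM in treated and untreated p53-/- cells, and 26.9 and 73.1 FPKM in treated and untreated p53+/+ cells. Of 11 base excision partners 0 were counted in the p53-/- response. In the p53+/+ response Xrcc1, the scaffold of the ligation step, was higher (1.09), and Apex1, the endonuclease that follows Tdg, was lower (-1.06). Their medians were 0.17 and 0.18 in the p53-/- and p53+/+ responses.

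Methyl-CpG readers had 0 of 8 measured members counted in either response, with medians of 0.05 in p53-/- and 0.17 in p53+/+ cells. The methionine cycle, which makes the methyl donor, had 0 of 10 counted in p53+/+ cells (median -0.15) and 1 of 10 in p53-/- cells (median 0.05). That 1 was Amd1, with a difference of 3.44; it has a near-identical copy, Amd2, so its value is uncertain.

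Partners counted between genotypes are read against the shares of all genes, 6.72% higher and 13.0% lower in treated cells, and 3.51% higher and 3.14% lower in untreated cells. In treated p53-/- against treated p53+/+ cells Sin3a (1.19), Lig3 (1.19), the ligase that closes the repaired strand with Xrcc1, Shmt1 (1.41), which feeds the folate cycle, and Prdm14 (1.57) were higher. Xrcc1 (-1.25) and Idh1 (-1.18) were lower in the same pair. In untreated p53-/- against untreated p53+/+ cells Apex1 (-1.09), Tfcp2l1 (-2.08) and the uncertain Amd1 (-2.40) were lower. The methyl-CpG readers and the maintenance partners had 0 counted in either pair of genotypes, out of 8 and 11 measured.

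**Figure D4:**
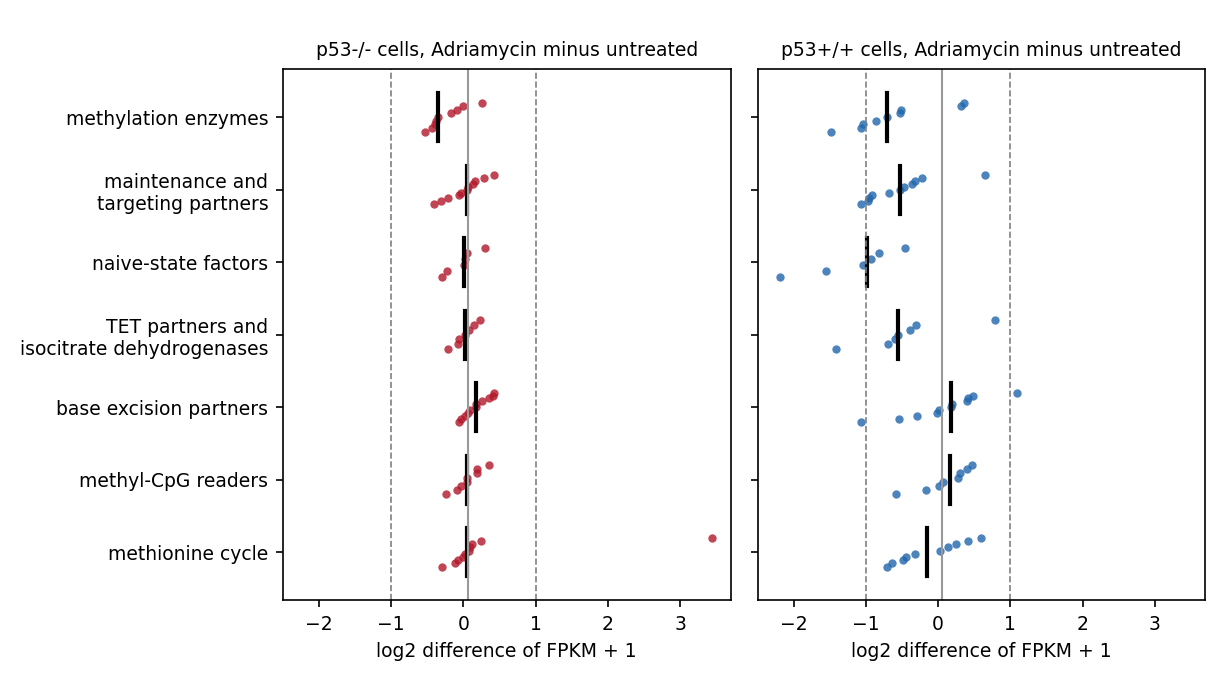
Each point is a measured gene of a list, placed by its treated minus untreated difference on the log2(FPKM + 1) scale, with p53-/- cells on the left and p53+/+ cells on the right. Black bars are list medians, the grey line is the median of all genes and dashed lines mark 1. The enzymes' median is -0.36 on the left and -0.70 on the right, and that of the naive-state factors 0.01 and -0.98.

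The gene with the widest range over the libraries was Tet2, and the pattern of all genes at 5 FPKM or more in a library was set against it. Likeness was the Euclidean distance between centred log2(FPKM + 1) profiles over 4 libraries, among 9357 genes. The 5 nearest were Lockd (0.104), Cks2 (0.175), Zfp518b (0.221), Rpl39 (0.234) and Kif23 (0.235). Cks2, a cyclin-dependent kinase subunit, had 17.8 and 29.8 FPKM in treated and untreated p53-/- cells, and 18.4 and 52.6 FPKM in treated and untreated p53+/+ cells. With 4 libraries such a distance describes the profiles only.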

How the data were processed

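The authors deposited a table for each library that gives, per the file headers, every transcript's FPKM with a lower and an upper bound, its read coverage (a signal not scaled between libraries) and its length, in the layout of Cufflinks. The submitters' processing notes list CASAVA 1.8.1, TopHat2 2.0.5, TopHat, Cufflinks and build mm9, in no stated role; the annotation is not given in the sources used here. An exome enrichment kit is named in the labels' protocols.

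Of 30769 rows, 30227 were named from a RefSeq table of GRCm38 and 180 from GENCODE M21, and 362 stayed unnamed. Short RNAs (813 rows) were left out. FPKM was summed over the rows of a gene. Differences are of log2(FPKM + 1), which understates the change of low genes, and 1 was the size counted. The members and lists were chosen with earlier results of these data known. Named genes were all members, called list genes (at most 4 per list and comparison) and the profile neighbours of the widest-ranging member; Hells was named by its response difference, and Dppa3 as a called list gene. The alternatives used a pseudocount of 0.1 or 5 FPKM, a filter of 5 FPKM or none, 3 scalings, the main row, a 1.5-fold step and rows within their bounds. Python 3.11.15, pandas 2.3.3, numpy 2.4.6 and matplotlib 3.10.9 were used, and the steps were tested on simulated data.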

Additional observations from a re-analysis of the deposited data

Results flagged for a closer look

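Tet3 stood out because its responses had opposite signs in the genotypes, at -0.01 in p53-/- and 0.36 in p53+/+ cells, which gives a response difference of -0.368 on the log2(FPKM + 1) scale. The difference was not tested, since each group has 1 library. Opposite signs of any size were found in 42.6% of all genes, and Tet3 was the only one of the 9 with them as summed. Its p53-/- libraries stood at 1.44 FPKM treated and 1.45 FPKM untreated, with overlapping bounds. After quantile normalization both its responses lay below 0, at -0.15 in p53-/- and -0.03 in p53+/+ cells. The main row of Uhrf1 also had opposite signs, at 0.02 in p53-/- and -0.42 in p53+/+ cells.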

How the results depend on the processing

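No paired analysis was possible because each group has 1 library. Counts of the 9 genes changed as follows. In the p53+/+ response 5 were lower at a 1.5-fold step, against 3, while over all 13012 genes 1466 were, against 362. In the same response 2 were lower with a pseudocount of 5 FPKM and after quantile normalization. Over all genes 153 of 13012 and 589 of 12907 were lower there. In untreated p53-/- cells 0 were lower, against 1, with a pseudocount of 5 FPKM and after quantile, upper quartile or median ratio scaling. Over all genes 122 of 13012, 354 of 12907, 383 of 13001 and 379 of 12985 were, in that order, against 409 of 13012. In treated p53-/- cells 1 was higher, against 2, with a pseudocount of 5 FPKM, while over all 13012 genes 336 were, against 875. In the response difference 1 was higher, against 0, with a pseudocount of 0.1 FPKM, after quantile normalization and for the main row. Over all genes 758 of 13012, 610 of 12907 and 476 of 12926 were, in that order, against 428 of 13012. At a 1.5-fold step 4 were higher there, while over all 13012 genes 1796 were, against 428. Over the settings tried, the p53+/+ response of Tet2 ran from -1.56 to -1.22, that of Dnmt3l from -1.13 to -0.93 (lowest in size after quantile normalization, not counted) and that of Dnmt3a from -1.39 to -0.76 (lowest in size with a pseudocount of 5 FPKM, not counted). No counted difference changed sign. Tet3 fell under the filter of 5 FPKM and has no value there. Quantile normalization moved the median of all genes in the p53+/+ response from 0.05 to -0.10 and the share of higher genes among those counted from 80.4% to 65.3%. With 1 library per group, depth sets only the bounds within a library.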
